A study of Homo sapiens with 16 samples.

Results

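Endoplasmic reticulum (ER) chaperone and unfolded protein genes were followed in gastric cancer cells in which MYB or TCF7 had been lowered. The set holds 35 named genes, chosen with earlier results of these data known. They were matched by symbol in a table of 28167 gene symbols. Where a symbol stood on more than 1 row (CANX, HYOU1 and DERL3) its rows were summed. By role, 11 are chaperones or secreted folding factors, 6 are disulfide enzymes, 5 are sensors or transcription factors, 8 act in degradation, and 5 act in translocation or export. RNA-seq was done in SNU719 and YCC10, established human gastric cancer lines that carry Epstein-Barr virus, labelled as wild type and grown in different media. Each knockdown was set against the control of its own set and line. In the MYB set, siRNA against MYB (siMYB) was compared with control siRNA (siCtrl), with 2 libraries per group and line. In the TCF7 set, siRNA against TCF7 (siTCF7) was compared with its own siCtrl, with 1 library per group and line. In the CRISPRi set, a CRISPR interference guide labelled sgMYB-E3 was compared with a control guide (sgCtrl), with 1 library per group and line. The labels give no time after transfection, no siRNA sequence and no clone history, and nothing says that 2 libraries of a group came from separate cultures. P-values therefore measure the spread between these libraries, which may be technical.

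Proteins that enter the secretory pathway fold in the ER lumen, helped by chaperones such as BiP (HSPA5) and by enzymes that form and rearrange disulfide bonds. When unfolded proteins accumulate, the membrane sensors IRE1 (ERN1), ATF6 and PERK switch on the unfolded protein response: IRE1 splices the XBP1 message, ATF6 is cut to release a transcription factor, and PERK slows translation and raises ATF4. XBP1 and ATF6 drive chaperone, disulfide isomerase and ER-associated degradation genes. MYB and TCF7 are transcription factors, the latter of the Wnt pathway. Splicing of XBP1 and cleavage of ATF6 are not visible in gene-level values.

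The authors deposited FPKM, a unit that divides fragment counts by transcript length and by the depth of the library. Depth in fragments is unknown; with YCC10 siCtrl 1 of the MYB set taken as 1, the relative depth estimated from the lowest values ran from 0.603 to 1.30. MYB was at 45.7 and 44.2 FPKM in SNU719 siCtrl and at 9.66 and 8.45 with siMYB, and at 29.4 and 27.3 against 1.95 and 1.43 in YCC10. With sgMYB-E3 it was at 18.3 against 47.6 in SNU719 and 12.3 against 21.1 in YCC10. TCF7 was at 7.99 against 26.9 and 4.14 against 22.6 with siTCF7, and MYB was also lower there, at 25.3 against 45.1 and 5.40 against 25.6. All 6 epithelial markers were expressed in every library, with sums of 4028 to 12473 FPKM. In SNU719 that sum went from 8034 to 8130 with siCtrl to 11823 to 12473 with siMYB, and in YCC10 from 6519 to 6569 down to 5043 to 5201. The markers did not move as one: in SNU719 KRT8, KRT18, KRT19, CDH1 and CLDN4 rose, while in YCC10 KRT8 and KRT18 fell (to 67.0% and 58.5% of control) and EPCAM, CDH1 and CLDN4 rose (to 134%, 133% and 157%). Their part in the results below was not tested. Of the other cell types' markers, all 6 of fibroblasts, 5 of lymphoid cells and 4 of endothelium stayed under 1 FPKM in every library, as did 4 of 5 of plasma cells and 3 of 4 of macrophages. The remaining plasma cell marker, SDC1, which these lines expressed at 57.8 to 202 FPKM, was at 80.1% of control with siMYB in SNU719 and 119% in YCC10 (neither past the threshold), at 68.7% and 61.0% with siTCF7, where it fell (-0.62, adjusted p = 0.0129), and at 79.8% and 78.8% with sgMYB-E3. The remaining macrophage marker, CD68, rose with siMYB, from 14.6 and 13.96 to 21.0 and 20.5 FPKM in SNU719 and from 3.65 and 4.07 to 4.76 and 5.99 in YCC10; the part of SDC1 and CD68 was not tested either. The 4 MYB-set libraries numbered 1 stand apart, with summed FPKM of 530695 to 653826 against 857784 to 1360020 in the other 12, so changes within each number are given as well.

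A pair of promoter elements links some of these genes to the unfolded protein response, and the matches are shown because XBP1 and ATF6 are known to act through such elements; 20 of the 31 members searched hold neither. The ER stress response element (ERSE) was searched as CCAAT and CCACG with 9 bases of any kind between them, and ERSE-II as ATTGG and CCACG with 1 base between them, on both strands, from 250 bases before to 50 bases after each start site in RefSeq promoters (GRCh38.p14). Windows were found for 31 of the 35 members. ERSE stood in 8 of them (25.8%), against 25 of 27305 genes in the table (0.0916%). ERSE-II stood in 3 (9.68%), against 19 of 27305 (0.0696%). The counts over all genes include these members. The set was chosen as unfolded protein genes and the elements are those of that response, so the gap is a description and no test. A gene with several start sites has several windows and was counted once if any held a match; of all 35116 windows 0.0769% and 0.0541% held one. The matches, with both half-sites in capitals, were:
HSPA5 ERSE: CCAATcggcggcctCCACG
HSP90B1 ERSE, the distal of its pair: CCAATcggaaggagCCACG
CALR ERSE: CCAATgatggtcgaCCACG
CANX ERSE: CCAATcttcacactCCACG
CRELD2 ERSE: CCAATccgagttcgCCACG
PDIA6 ERSE: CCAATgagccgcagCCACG
XBP1 ERSE: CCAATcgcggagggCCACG
ERO1B ERSE: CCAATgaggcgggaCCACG
SDF2L1 ERSE-II: ATTGGtCCACG
HYOU1 ERSE-II, the same letters at both of its sites: ATTGGaCCACG
HERPUD1 ERSE-II: ATTGGgCCACG
The HSPA5 element lay at chr9:125241391-125241409 on the minus strand, 66 to 48 bases before the start site. The 130 bases before that start site (chr9:125241344-125241473, minus strand, written 5′ to 3′ along the gene) hold 2 CCAAT boxes and 1 CCACG half-site, in capitals:
HSPA5 upstream: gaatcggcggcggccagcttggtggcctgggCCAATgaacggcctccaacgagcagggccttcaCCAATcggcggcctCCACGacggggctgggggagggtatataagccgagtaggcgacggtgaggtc
The shorter cores TGACGTGG and TGACGTCA, which ATF6, XBP1 or related factors can bind, each stood in 1 member (HYOU1 and CREB3L2), against 0.927% and 2.25% of all genes (0.729% and 1.85% of windows). A match is a description of letters and not a measured binding site.

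With siMYB, more members rose than fell in YCC10, and fewer changed in SNU719. Of the 35 members, 33 had a mean of at least 1 FPKM and were tested with limma on log2(FPKM + 1), with p-values adjusted over all genes and a threshold of 0.05; "rose" and "fell" below mean past that threshold. ERO1B (at most 0.09 FPKM) and DERL3 (0.470 to 1.46 FPKM in SNU719, at most 0.0467 in YCC10) were not tested. In YCC10 20 members changed, 17 up (51.5%) and 3 down (9.09%), where 41.8% of 12095 genes tested changed, 15.3% up and 26.5% down. In SNU719 7 changed, 5 up and 2 down (21.2%), where 22.6% of all genes did, 8.04% up and 14.6% down. In this fit, which does not pair libraries, the total there was near the background, though more members rose than fell, unlike all genes. That total was larger with the replicate block given below, as was that of all genes. The share of members then lay above that of all genes, as it did after median-of-ratios scaling. The median member change was 0.26 on the log2 scale in YCC10 and 0.10 in SNU719, against -0.07 and -0.06 over all genes. Every call had the same sign within both replicate numbers, in 7 of 7 and 20 of 20 cases. The calls were made from these same libraries, so this describes them and is no independent check.

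The counts moved with the processing. After median-of-ratios scaling 10 members rose and 2 fell in SNU719, and 19 rose and 2 fell in YCC10, while 1235 genes rose and 1180 fell over all genes in SNU719 (972 and 1765 as deposited) and 2575 rose and 2239 fell in YCC10 (1851 and 3205 as deposited). With a replicate block, a term that pairs libraries of 1 number and line, 12 members rose and 7 fell in SNU719 where 40.1% of all genes changed, and 20 rose and 6 fell in YCC10 where 56.3% did. The 12 calls that this block added in SNU719 were the rises of HSP90B1, DNAJB9, PDIA6, P4HB, ATF6, CREB3 and OS9 and the falls of SDF2L1, CALR, CANX, ERO1A and CREB3L2 (adjusted p of 0.00772 to 0.0481). The 6 it added in YCC10 were the rises of DNAJC3, CREB3 and SYVN1 and the falls of SDF2L1, CANX and SPCS2 (adjusted p of 0.0110 to 0.0336). Without the first or the second SNU719 siCtrl library the SNU719 count was 4 or 3. These are bulk libraries, in which fewer cells of a type and less RNA per cell cannot be told apart.

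**Figure D1:**
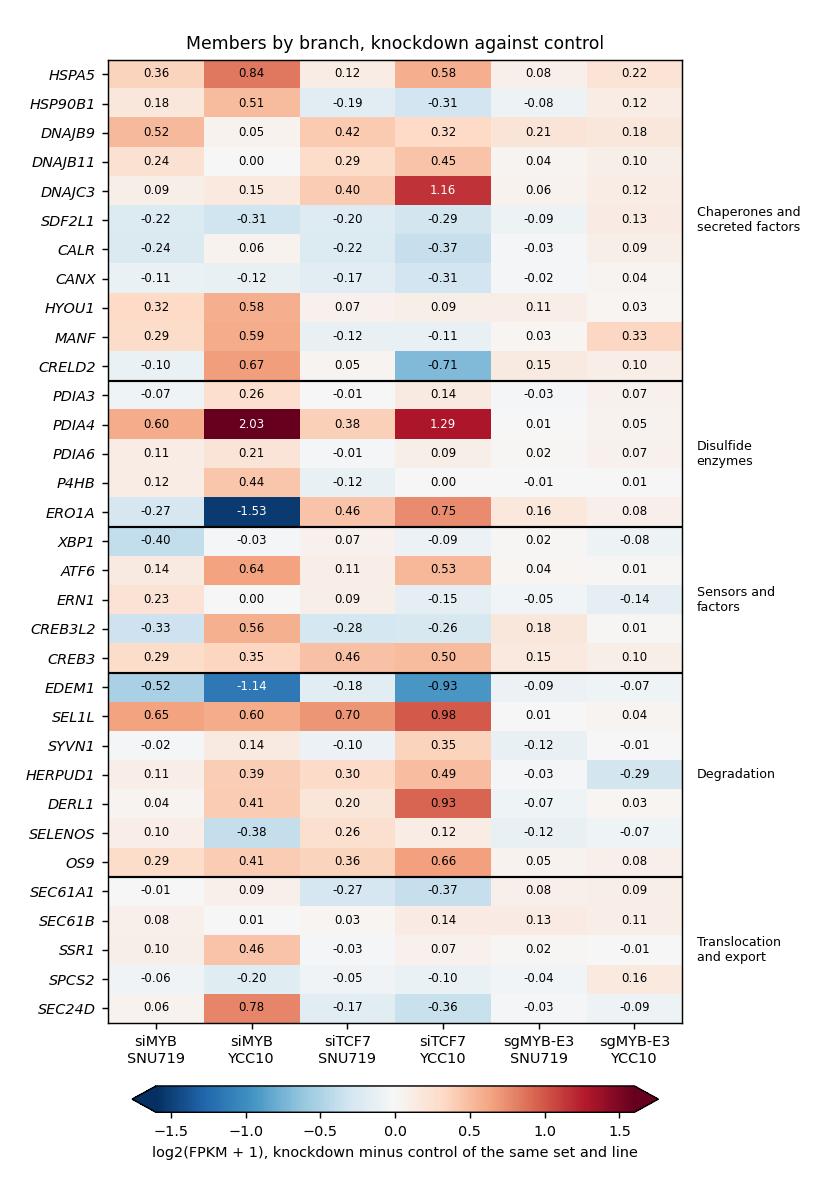
Heat map of the 33 tested members (rows, grouped by role) in the 6 knockdown and line combinations (columns); each cell gives the mean log2(FPKM + 1) of the knockdown minus that of the control of the same set and line, in red where higher and blue where lower. PDIA4 (2.03) and ERO1A (-1.53) with siMYB in YCC10 stand at the ends, and the 2 sgMYB-E3 columns stay between -0.29 and 0.33.

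Among the 11 chaperones and secreted factors, siMYB raised 5 in YCC10 and 3 in SNU719, and none fell in either line. Of all genes 15.3% rose and 26.5% fell in YCC10, and 8.04% rose and 14.6% fell in SNU719. HSPA5, the main Hsp70 chaperone of the ER lumen (chr9:125234853-125241330, GRCh38), was at 285 and 282 FPKM in YCC10 siCtrl and at 506 and 509 with siMYB. In SNU719 it was at 151 and 148, against 184 and 200.3 with siMYB. Groups did not overlap in either line, and the rise was larger in YCC10 (log2 change 0.84, SE 0.05, adjusted p = 0.000311) than in SNU719 (0.36, SE 0.05, adjusted p = 0.00875; 0.0567 without the second SNU719 siCtrl library and 0.056 after quantile normalization).

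HYOU1, a large Hsp70-like protein that helps BiP exchange nucleotide (chr11:119044189-119057202), went from 133 and 145 to 201 and 216 FPKM in YCC10. Its SNU719 level was lower, 34.7 and 36.0 with siCtrl and 42.6 and 46.3 with siMYB. The change was 0.58 (SE 0.07, adjusted p = 0.00217) in YCC10 and 0.32 (SE 0.07, adjusted p = 0.0291) in SNU719, where the call was lost without any 1 of the 4 SNU719 libraries (adjusted p up to 0.122). MANF, a secreted factor that is released under ER stress, rose by 0.59 in YCC10 (146 and 157 to 224 and 233 FPKM) and by 0.29 in SNU719 (96.9 and 101 to 115 and 128 FPKM). The SNU719 call of MANF was lost without each library but the first SNU719 siMYB one (adjusted p up to 0.15).

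HSP90B1, the Hsp90 of the ER lumen (GRP94), rose in YCC10 from 671 and 625 to 956 and 891 FPKM (0.51, SE 0.07). Its SNU719 values were 397 and 369 with siCtrl and 431 and 435 with siMYB (0.18, SE 0.07, adjusted p = 0.105). CRELD2, a disulfide-linked secreted factor, went from 32.1 and 37.4 to 51.3 and 60.3 FPKM in YCC10 (0.67, SE 0.15), a call that was lost without the first siCtrl or the second siMYB library of that line (adjusted p up to 0.0817). In SNU719 CRELD2 overlapped between groups, at 18.3 and 20.0 against 15.6 and 20.1 FPKM.

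The lectin chaperones of glycoproteins, the J-domain partners of BiP and SDF2L1 did not pass the threshold in either line. Calreticulin (CALR), among the most abundant members at 381 to 1083 FPKM in the MYB set, had changes of 0.06 in YCC10 and -0.24 in SNU719, and calnexin (CANX) of -0.12 and -0.11. SDF2L1, a BiP-associated factor, had changes of -0.31 and -0.22. The J-domain proteins DNAJB11, DNAJC3 and DNAJB9 had changes of 0.00, 0.15 and 0.05 in YCC10 and of 0.24, 0.09 and 0.52 in SNU719. The replicate block put CANX and SDF2L1 past the threshold as lower in both lines, CALR as lower and DNAJB9 as higher in SNU719, and DNAJC3 as higher in YCC10.

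**Figure D2:**
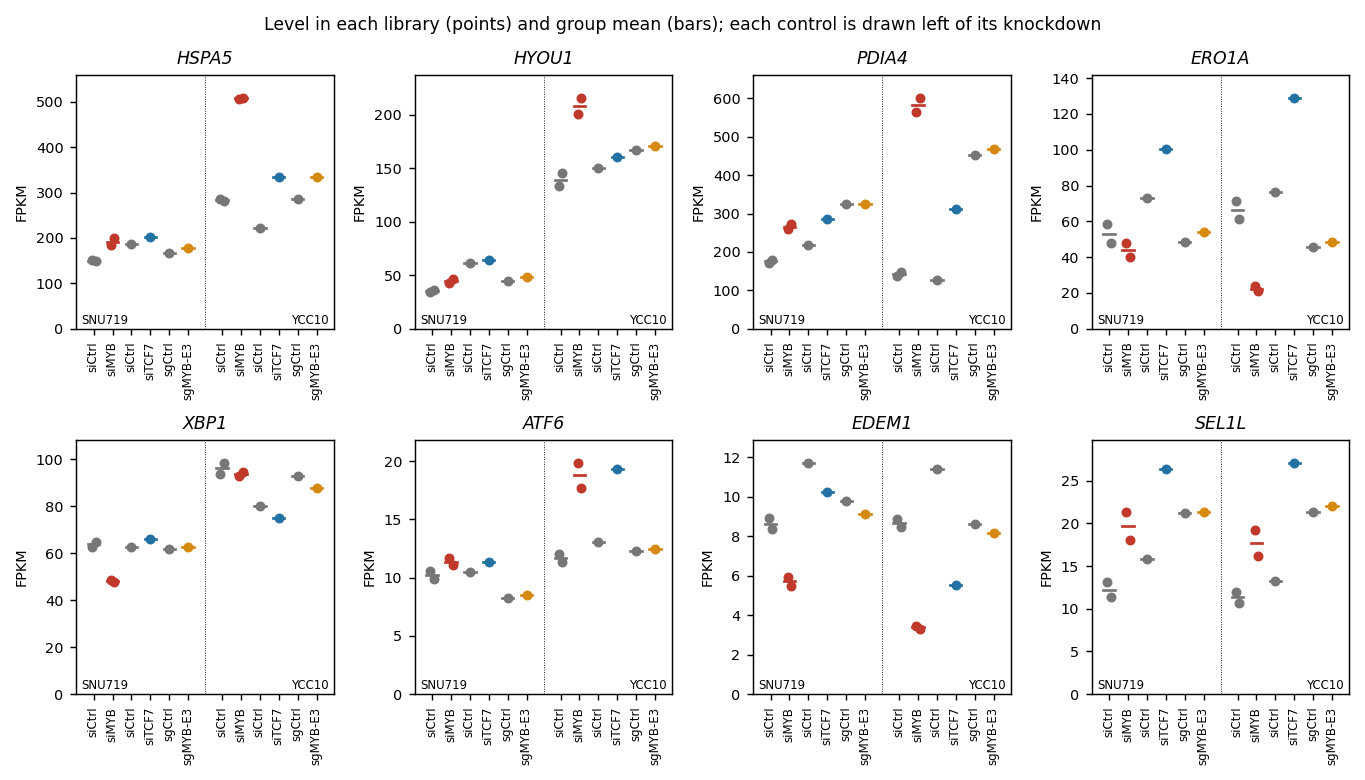
FPKM of 8 members in every library (points, with the group mean as a bar); siCtrl and sgCtrl are grey, siMYB red, siTCF7 blue and sgMYB-E3 orange, with SNU719 left and YCC10 right of the dotted line. The 8 genes are among those named for a large called change in some comparison, so gaps between their siMYB and siCtrl points are no separate result. XBP1 overlaps between siMYB and siCtrl in YCC10. PDIA4 in YCC10 sgCtrl (453 FPKM) lies far above PDIA4 in the YCC10 siCtrl libraries (127 to 147 FPKM).

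All 5 tested disulfide enzymes changed with siMYB in YCC10, 4 up and 1 down, where 15.3% of all genes rose and 26.5% fell. PDIA4, a disulfide isomerase with extra thioredoxin domains (ERp72; chr7:149003062-149028641), went from 138 and 147 FPKM with siCtrl to 564 and 602 with siMYB in YCC10. SNU719 values were 172 and 179 against 261 and 272. The log2 change was 2.03 (SE 0.06, adjusted p = 9.45e-05) in YCC10 and 0.60 (SE 0.06, adjusted p = 0.00259; 0.0502 in the fit of all 16 libraries) in SNU719, and the groups did not overlap in either line. In the control libraries of the CRISPRi set PDIA4 was higher than with siCtrl, at 453 FPKM in YCC10 sgCtrl and at 324 in SNU719 sgCtrl.

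ERO1A, the oxidase that recharges disulfide isomerases (chr14:52639916-52695900), moved opposite to its partners. It fell in YCC10 from 71.2 and 61.5 to 23.9 and 20.8 FPKM (-1.53, SE 0.14, adjusted p = 0.000905), and its SNU719 values of 58.4 and 47.8 against 47.9 and 40.0 overlapped (-0.27, SE 0.14, adjusted p = 0.242). P4HB, the founding disulfide isomerase, rose in YCC10 by 0.44 (552 and 588 to 751 and 798 FPKM). PDIA3, the isomerase that works with calreticulin and calnexin, and PDIA6 rose by 0.26 and 0.21 in YCC10, and both calls were lost without the second siCtrl or second siMYB library of that line (adjusted p up to 0.125 and 0.0602; for PDIA3 also without the first siMYB library) and after quantile normalization (0.255 and 0.271). In SNU719 P4HB, PDIA3 and PDIA6 had changes of 0.12, -0.07 and 0.11. ERO1B, the second oxidase, was at 0.09 FPKM or less in every library.

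Of the 5 sensors and transcription factors, XBP1 fell in SNU719, and ATF6 and CREB3L2 rose in YCC10. Over all genes 22.6% changed in SNU719 and 41.8% in YCC10. XBP1, the target of IRE1 (chr22:28794555-28800597), fell in SNU719 from 62.8 and 64.8 to 48.6 and 47.8 FPKM (-0.40, SE 0.05, adjusted p = 0.00444). In YCC10 XBP1 was at 93.8 and 98.4 with siCtrl and 93.0 and 94.6 with siMYB, overlapping (-0.03, SE 0.05, 95% interval -0.15 to 0.08). ATF6 (chr1:161766294-161964070) rose in YCC10 from 12.0 and 11.3 to 19.8 and 17.7 FPKM (0.64, SE 0.08, adjusted p = 0.00174), and its SNU719 change was 0.14 (SE 0.08). ERN1, which encodes IRE1, was low throughout, at 1.66 and 1.59 against 1.55 and 1.70 FPKM in YCC10 and 2.82 and 2.78 against 3.36 and 3.53 in SNU719, with neither change past the threshold (adjusted p = 1 and 0.0537).

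CREB3L2, an ER-membrane factor cut like ATF6, rose in YCC10 from 4.23 and 3.63 to 6.41 and 6.13 FPKM (0.56, SE 0.09, adjusted p = 0.00516). In SNU719 it was at 4.30 and 3.67 against 3.03 and 2.88 FPKM (-0.33, SE 0.09, adjusted p = 0.0519), with groups that did not overlap. Its relative CREB3 had changes of 0.35 in YCC10 (adjusted p = 0.05, not past the threshold) and 0.29 in SNU719 (adjusted p = 0.113); over both lines in 1 fit CREB3 rose by 0.32 (SE 0.08, adjusted p = 0.0235), a call lost without any 1 of 4 libraries, the first siCtrl of each line, the first SNU719 siMYB and the second YCC10 siMYB (adjusted p up to 0.0623).

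Of the 7 tested degradation genes, 4 rose and 2 fell with siMYB in YCC10, where 15.3% of all genes rose and 26.5% fell. EDEM1, a mannosidase-like protein that marks misfolded glycoproteins for removal (chr3:5187646-5219957), fell in both lines. YCC10 values were 8.87 and 8.50 FPKM with siCtrl against 3.47 and 3.31 with siMYB (-1.14, SE 0.06, adjusted p = 0.000209). SNU719 values were 8.91 and 8.38 against 5.95 and 5.50 (-0.52, SE 0.06, adjusted p = 0.00439), so groups did not overlap in either line. SEL1L, the scaffold of the HRD1 ubiquitin ligase (chr14:81471549-81533861), rose in both. YCC10 held it at 12.0 and 10.6 FPKM with siCtrl and at 19.2 and 16.2 with siMYB (0.60, SE 0.13, adjusted p = 0.0129), and SNU719 at 13.1 and 11.4 against 21.4 and 18.1 (0.65, SE 0.13, adjusted p = 0.0186). The SEL1L call was lost in YCC10 without its second siCtrl or first siMYB library (adjusted p up to 0.0659), and in SNU719 without those or its first siCtrl library (up to 0.0956). The sgCtrl libraries held SEL1L at 21.4 FPKM in YCC10 and 21.2 in SNU719, no lower than the siMYB mean of either line.

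The ligase itself, SYVN1, had changes of 0.14 and -0.02. HERPUD1, which organises the ligase, DERL1, a channel subunit, and the lectin OS9 rose in YCC10 by 0.39, 0.41 and 0.41. DERL1 went from 22.6 and 23.3 to 30.3 and 31.0 FPKM, while YCC10 sgCtrl held it at 33.6; its adjusted p was 0.0556 in the fit of all 16 libraries. OS9 went from 94.5 and 99.9 to 123 and 135 FPKM, a call lost without the first siCtrl or second siMYB library of that line (adjusted p up to 0.0669). SELENOS, a selenoprotein of the retrotranslocation complex, fell from 28.96 and 31.2 to 23.2 and 22.7 FPKM (-0.38, SE 0.10, adjusted p = 0.029); that call was lost after median-of-ratios scaling (0.0706) and without any 1 library other than the 2 SNU719 siMYB ones (up to 0.124). In SNU719 HERPUD1, DERL1, OS9 and SELENOS had changes of 0.11, 0.04, 0.29 and 0.10.

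Of the 5 translocation and export genes 2 rose in YCC10 (40%) and 0 changed in SNU719. Of all genes 41.8% changed in YCC10, 15.3% up and 26.5% down. SEC24D, a cargo-binding coat subunit of vesicles that leave the ER (chr4:118722823-118838683), rose in YCC10 from 6.86 and 7.09 to 13.4 and 12.0 FPKM (0.78, SE 0.07, adjusted p = 0.000802), against 10.0 and 10.7 and 11.1 and 10.6 in SNU719. SSR1, a subunit of the translocon-associated protein complex, rose in YCC10 from 19.5 and 16.7 to 27.3 and 23.3 FPKM (0.46, SE 0.15, adjusted p = 0.0491), a call lost without any 1 library other than the 2 SNU719 siCtrl ones (up to 0.202), without a filter, after quantile normalization and without the intensity trend (up to 0.0865). The channel subunits SEC61A1 and SEC61B and the signal peptidase subunit SPCS2 had changes of 0.09, 0.01 and -0.20 in YCC10 and of -0.01, 0.08 and -0.06 in SNU719.

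The siMYB effect differed between the lines in 10 of 33 members (30.3%), against 19% of all genes, 8.65% with the higher effect in YCC10 and 10.3% with the lower. For 8 of them the effect was the higher one in YCC10: PDIA4 (difference 1.43, SE 0.08, adjusted p = 0.00115), CREB3L2 (0.89), SEC24D (0.72), ATF6 (0.50), HSPA5 (0.48), XBP1 (0.36), DERL1 (0.36) and P4HB (0.33). For ERO1A (-1.26, SE 0.20) and EDEM1 (-0.62, SE 0.09) the effect was the lower one in YCC10; EDEM1 fell in both lines, and ERO1A did not pass the threshold in SNU719 without the replicate block. XBP1 is in the first group because it fell in SNU719 while its YCC10 values overlapped. SEL1L (difference -0.05, 95% interval -0.49 to 0.40) and CREB3 (0.05, interval -0.33 to 0.44) had no difference past the threshold, with intervals that allow one of some size. With the replicate block 20 members differed, where 36% of all genes did: HSP90B1, CALR, HYOU1, MANF, CRELD2, PDIA3, HERPUD1 and SSR1 with a higher effect in YCC10 and DNAJB9 and SELENOS with a lower one were added (adjusted p of 0.00807 to 0.048). In the fit of all 16 libraries 6 differed. Leaving out 1 library gave 5 to 8; the calls of PDIA4, CREB3L2, EDEM1 and SEC24D were kept whichever library was left out, and that of P4HB was lost in each case (adjusted p up to 0.15). MYB itself fell by 3.45 in YCC10 and by 2.19 in SNU719, a difference of -1.26 (SE 0.16, adjusted p = 0.00671).

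**Figure D3:**
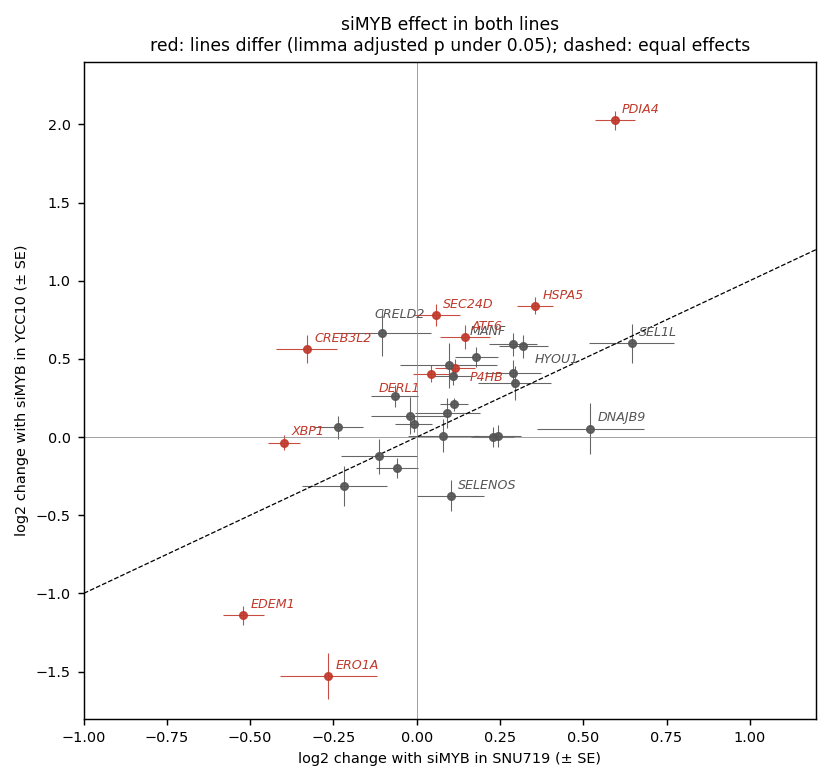
Change of each tested member with siMYB in SNU719 (x axis) and YCC10 (y axis), as log2 change on the log2(FPKM + 1) scale with its standard error; red points differ between the lines by limma, and the dashed line marks equal effects. PDIA4 lies far above the line and EDEM1 and ERO1A far below it, while SEL1L lies close to it.

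With siTCF7, 15 of 33 members changed (45.5%), 10 up and 5 down, where 24.6% of 12290 genes tested changed, 11.4% up and 13.2% down. Each group here is 1 library, so the fit shares 1 effect over both lines and takes its spread from the MYB set and from line differences. The rises were SEL1L (0.84, SE 0.12, adjusted p = 0.00646), PDIA4 (0.84, SE 0.17), DNAJC3 (0.78, SE 0.16), ERO1A (0.60), DERL1 (0.57), OS9 (0.51), CREB3 (0.48), HERPUD1 (0.40), DNAJB11 (0.37) and HSPA5 (0.35). The falls were EDEM1 (-0.55, SE 0.15), SEC61A1 (-0.32), CALR (-0.30), SEC24D (-0.26) and HSP90B1 (-0.25). After quantile normalization 9 rose and 2 fell, and after median-of-ratios scaling 10 rose and 3 fell. When the siCtrl or the siTCF7 library of YCC10 was left out, 1 call remained, that of PDIA4; the call of HSP90B1 was lost without any 1 of the 16 libraries (adjusted p up to 0.357). HSPA5, EDEM1 and SEC24D also lost their calls with the replicate block (adjusted p of 0.0612, 0.052 and 0.0534), while the block added the rise of DNAJB9 and the falls of CANX and CREB3L2 (0.0239 to 0.0387).

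Within each line the siTCF7 values have no test. DNAJC3, a co-chaperone that also inhibits PERK, was at 35.1 against 15.2 FPKM in YCC10 and 29.4 against 21.9 in SNU719. SEL1L was at 27.1 against 13.3 in YCC10 and 26.3 against 15.8 in SNU719. ERO1A was at 129 against 76.2 in YCC10 and 101 against 73.1 in SNU719, higher than its control in both, where siMYB had lowered it in YCC10. HSPA5 was at 334 against 222 in YCC10 and 203 against 186 in SNU719; the YCC10 siCtrl value of the TCF7 set lies below the other 3 YCC10 controls (282 to 287 FPKM). EDEM1 was at 5.51 against 11.4 in YCC10 and 10.2 against 11.7 in SNU719. HSP90B1 was at 429.6 against 533 in YCC10 and 409.6 against 466 in SNU719, below its control in both. At least 0.3 on the log2 scale separated 13 members upward and 7 downward in YCC10 (39.4% and 21.2%, against 24.6% and 24% of all genes) and 8 and 0 in SNU719 (24.2% and 0%, against 11.6% and 11%).

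None of the remaining members passed the threshold with siTCF7 over both lines. ATF6 was at 0.32 (adjusted p = 0.0555), CREB3L2 at -0.27 (0.0574) and DNAJB9 at 0.37 (0.0889). XBP1 and ERN1 were at -0.01 and -0.03, and CRELD2 at -0.33 with a wide SE of 0.19. HYOU1, MANF, P4HB, PDIA3 and PDIA6 lay between -0.12 and 0.08. SDF2L1 and CANX were at -0.25 and -0.24, and SYVN1, SELENOS, SEC61B, SSR1 and SPCS2 lay between -0.08 and 0.19.

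With sgMYB-E3, 0 of 33 members changed, and 0 had an unadjusted p under 0.05; over all genes 4 of 12290 changed (0.0325%), 1 up (0.00814%) and 3 down (0.0244%), and 461 had an unadjusted p under 0.05. Member changes ran from -0.16 (HERPUD1) to 0.20 (DNAJB9), with a median of 0.03. HSPA5 was at 177 against 167 FPKM in SNU719 and 334 against 287 in YCC10 (0.15, SE 0.10, 95% interval -0.08 to 0.38). PDIA4 was at 326 against 324 and 469 against 453 FPKM (0.03, interval -0.37 to 0.43). The log2 change of MYB itself, -1.03 (SE 0.26), did not pass the threshold (adjusted p = 0.981); that with siMYB was lower by a further 1.79 (SE 0.32, adjusted p = 0.0168). In YCC10 MANF, at 177 against 141 FPKM, was the 1 member at least 0.3 higher (of all genes 2.86% were) and 0 were at least 0.3 lower (3.83%). In SNU719 0 members passed either limit, where 4.04% and 3.42% of all genes did.

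The difference between knockdowns was tested in the same fit. The siMYB effect over both lines differed from that of sgMYB-E3 in 7 members (21.2%), where 9.25% of all genes differed, 2.87% higher and 6.38% lower: higher for PDIA4 (1.28, SE 0.21), SEL1L (0.59), SEC24D (0.48), HERPUD1 (0.41) and HYOU1 (0.38), lower for ERO1A (-1.02, SE 0.17) and EDEM1 (-0.75, SE 0.18; adjusted p 0.0648 with the replicate block). All 7 calls were lost when any 1 of the 4 CRISPRi-set libraries was left out. Leaving out any 1 of the 8 MYB-set libraries left 3 or 4 calls, and any 1 of the 4 TCF7-set libraries gave 12. After median-of-ratios scaling 8 were higher and 1 lower, and after quantile normalization 4 and 0. The siMYB effect differed from that of siTCF7 in 7 members (21.2%, against 13.2% of all genes, 4.07% higher and 9.1% lower): higher for SEC24D (0.68), HSP90B1 (0.59), MANF (0.56), HYOU1 (0.37), SEC61A1 (0.36) and P4HB (0.34), lower for ERO1A (-1.501, SE 0.17, adjusted p = 0.0026). The calls of ERO1A, HSP90B1 and SEC24D were kept whichever library was left out; HYOU1, MANF, P4HB and SEC61A1 lost theirs without some (adjusted p up to 0.086). SEL1L (-0.22, 95% interval -0.56 to 0.13) and EDEM1 (-0.28, interval -0.69 to 0.13) did not pass. The replicate block added P4HB and SSR1 to the differences from sgMYB-E3 (adjusted p of 0.0287 and 0.0423) and CREB3L2 and SSR1 to those from siTCF7 (0.0363 and 0.0407), all as higher.

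Before any knockdown the lines differed, and the chaperones were lower in SNU719. Across the 4 control libraries per line, 20 of 33 members differed (60.6%), where 64% of all genes did, so the share was near the background; by direction 18 members were lower in SNU719 (54.5%) and 2 higher (6.06%), against 30.4% and 33.6% of all genes. Of the 11 chaperones and secreted factors 10 were lower, DNAJC3 being the exception. HYOU1 was at 34.7 to 61.4 FPKM in SNU719 and 133 to 167 in YCC10 (-1.76, SE 0.12, adjusted p = 5.28e-05). DNAJB11 was at 56.4 to 67.9 against 111 to 141 (-1.04, SE 0.10), and CALR at 437 to 589 against 835 to 1035 (-0.86, SE 0.12). HSPA5 was at 148 to 186 against 222 to 287 (-0.72, SE 0.12). The lines did not overlap for these 4 genes, of which HYOU1, DNAJB11 and CALR were named for the largest called differences of their role. The share of all genes without overlap was not counted.

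Among the other roles, PDIA3 (-0.93, SE 0.08), P4HB (-0.20), XBP1 (-0.52), CREB3 (-0.40), ATF6 (-0.29), OS9 (-0.75), SELENOS (-0.47) and SPCS2 (-0.58) were lower in SNU719. ERN1 was at 2.78 to 3.78 FPKM in SNU719 and 1.59 to 2.30 in YCC10 (0.52, SE 0.08), and SEC24D at 8.29 to 15.6 against 6.86 to 7.33 (0.55, SE 0.13); these 2 were higher in SNU719. EDEM1, SEL1L, ERO1A and SEC61A1 had differences of 0.05, 0.11, -0.15 and -0.04, none past the threshold. DNAJB9 lost its call without either SNU719 siCtrl library of the MYB set (adjusted p up to 0.0539), and CANX and P4HB lost theirs without any 1 of the MYB-set or CRISPRi-set controls (up to 0.0926 and 0.113). The lines were grown in different media, so line and medium cannot be told apart.

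**Figure D4:**
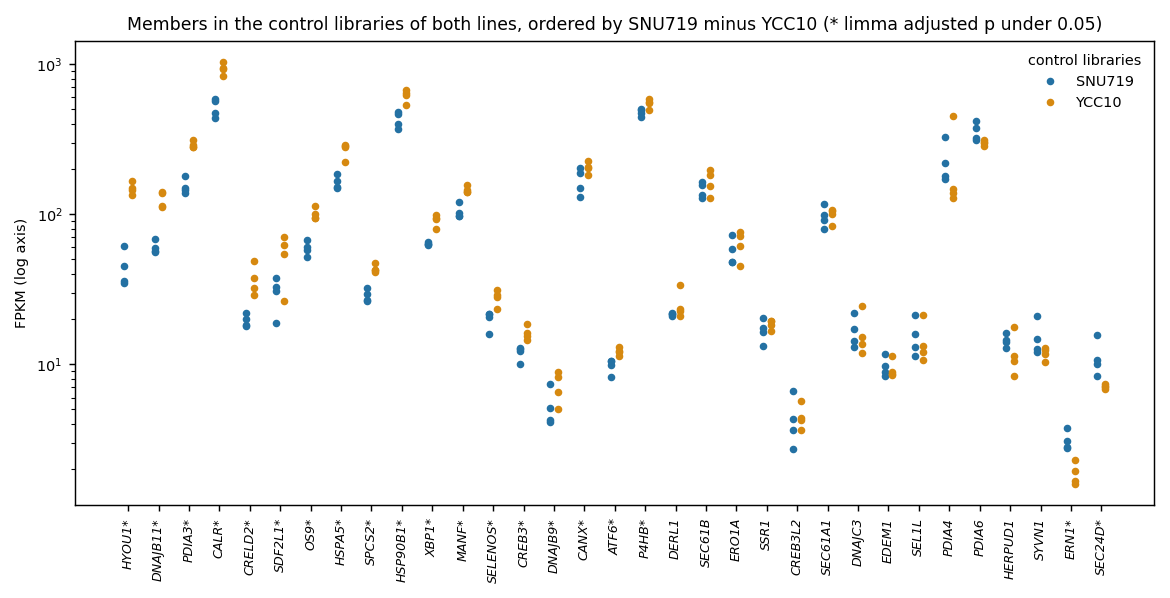
FPKM on a log axis of each tested member in the 4 control libraries of SNU719 (blue) and of YCC10 (orange), ordered by the limma difference of SNU719 minus YCC10, with an asterisk where it passed the threshold. HYOU1 stands at the left end (-1.76) and SEC24D at the right end (0.55), and PDIA4 has 1 YCC10 library, sgCtrl, far above the other 3.

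PDIA4 and SEL1L lay higher in the sgCtrl libraries than in every siCtrl library of the same line; this comparison was added after the values had been seen. The 2 sgCtrl libraries were set against the 6 siCtrl libraries with the line as covariate. All sgCtrl libraries are of the CRISPRi set and no siCtrl library is, so kind of control and set cannot be told apart. No member passed the threshold, where 0.468% of all genes did, 0.189% higher and 0.279% lower, and 7 members had an unadjusted p under 0.05, where 2496 of 12187 genes did. The largest differences were those of PDIA4 (1.25, SE 0.21, adjusted p = 0.0583) and SEL1L (0.71, SE 0.13, adjusted p = 0.0667). PDIA4 was at 127 to 147 FPKM in the YCC10 siCtrl libraries and at 172 to 218 in those of SNU719, below both sgCtrl libraries. SEL1L was at 10.6 to 15.8 FPKM over the 6 siCtrl libraries, below both sgCtrl libraries as well. Without the SNU719 sgCtrl library 1 member passed the threshold, as higher. In YCC10 DNAJC3 was at 12.0 to 15.2 FPKM with siCtrl and 24.5 with sgCtrl. For PDIA4 and SEL1L the siMYB and siTCF7 changes therefore start from a siCtrl level under that of sgCtrl; the part of this gap in those changes was not tested.

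Members with and without the promoter elements were set side by side. Of the 11 with ERSE or ERSE-II 10 were tested, and 6 rose and 0 fell with siMYB in YCC10, with a median change of 0.30; of the 20 without, 8 rose and 3 fell, with a median of 0.14, where 41.8% of all genes changed. The 6 were HSPA5, HSP90B1, HYOU1, CRELD2, PDIA6 and HERPUD1, and those with an element that did not pass were CALR, CANX, SDF2L1 and XBP1. In SNU719 2 rose and 1 fell of the 10 with an element, and 3 rose and 1 fell of the 20 without, with medians of 0.00 and 0.11 (22.6% of all genes changed). With siTCF7 2 rose and 2 fell of the 10, and 7 rose and 2 fell of the 20, with medians of -0.12 and 0.16 (24.6% of all genes). With sgMYB-E3 0 changed in either group, with medians of 0.03 and 0.06. PDIA4, EDEM1, ERO1A and SEL1L, which had the largest changes of their roles with siMYB in YCC10, are among those with a window and no match.

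Genes of the pathway that are not in the set were read from lists by role, with siMYB over both lines in 1 fit, where 29.4% of all genes changed, 8.76% up and 20.7% down. In that fit 14 of the 33 members changed, 12 up and 2 down (42.4%), and 10 did with the replicate block, in which PDIA6, P4HB, ERO1A, ATF6 and HERPUD1 lost their calls (adjusted p of 0.0538 to 0.0865) and SDF2L1 fell (0.032). Leaving out 1 of the 4 YCC10 libraries gave 7 or 8. Of 19 other ER folding genes 9 rose and 1 fell (52.6%). CALU, a calcium-binding protein of the secretory pathway, rose by 1.28 (SE 0.20), the oxidase QSOX1 by 0.75 (SE 0.08), and the prolyl isomerases FKBP10 and FKBP2 by 0.73 and 0.54. CALU, like PDIA4, was lower in siCtrl than in sgCtrl, at 21.0 to 25.8 against 72.3 FPKM in YCC10. FKBP10 was lower in siCtrl as well, with sgCtrl minus siCtrl at 0.57 over both lines, not past the threshold.

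Of 18 other degradation genes 1 changed, the ligase RNF139 (0.46, SE 0.12). Of 27 other translocation and glycosylation genes 6 rose and 4 fell. Among the rises were the signal recognition particle receptor SRPRA (0.63, SE 0.09) and the signal peptidase subunit SPCS3 (0.43). Among the falls were the translocon partner SEC63 (-0.59) and the oligosaccharyltransferase subunit RPN1 (-0.52, SE 0.06). SRPRA and SPCS3 were also lower in siCtrl, with sgCtrl minus siCtrl at 0.60 and 0.78, neither past the threshold. The part of this gap in their rises was not tested. Of 15 vesicle transport genes 1 rose and 3 fell: the coat subunit SEC23A (0.47), the retrieval receptor KDELR3 (-1.11, SE 0.10), the cargo receptor LMAN1 (-0.84, SE 0.17) and SEC23B (-0.18). KDELR3, which returns escaped ER proteins from the Golgi, was at 34.3 and 31.9 FPKM with siCtrl and 12.9 and 12.2 with siMYB in YCC10, and at 12.6 and 11.5 against 6.25 and 5.73 in SNU719. It fell in both lines, by 1.33 in YCC10 and by 0.90 in SNU719.

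The PERK and ATF4 arm changed in both directions. Of its 12 genes 8 were tested, of which ATF3 (0.41, SE 0.10) and PPP1R15A (0.35, SE 0.09) rose and CHAC1 (-1.45, SE 0.30) and ATF4 (-0.48, SE 0.09) fell. CHAC1, a glutathione-degrading target of ATF4, went from 9.01 and 9.58 to 1.08 and 1.39 FPKM in YCC10. Among 10 tested genes of sensor processing and ER-membrane factors, MBTPS1, the protease that cuts ATF6 and the CREB3 family, rose by 0.72 (SE 0.13), CREB3L1 rose by 0.24 and the CCAAT-box subunit NFYC fell by 0.30. MBTPS1 was at 13.5 to 14.9 FPKM in the YCC10 siCtrl libraries and at 36.0 in sgCtrl, against 28.5 and 29.3 with siMYB. CREB3L1 fell with sgMYB-E3 (-0.69, SE 0.06, adjusted p = 0.0163), being at 5.25 against 9.16 FPKM in SNU719 and 11.6 against 19.1 in YCC10. With siTCF7 24.6% of all genes changed, 11.4% up and 13.2% down. In the same lists 1 of 19 other folding genes rose (CALU, 0.78) and 3 fell. Within each line, without a test, PDIA5 of that list was at 5.70 against 42.6 FPKM in YCC10 and 14.2 against 34.1 in SNU719. Of 18 degradation genes 1 rose and 1 fell, and of 27 translocation and glycosylation genes 1 rose and 3 fell. Of 15 vesicle transport genes 0 changed, and of 8 in the PERK and ATF4 arm 1 rose and 1 fell. In sensor processing 3 rose and 1 fell of 10, MBTPS1 rising by 1.12 (SE 0.20). With sgMYB-E3 no other gene of these lists passed the threshold. Within YCC10, without a test, 6 of 8 genes of the PERK and ATF4 arm were at least 0.3 lower (75%, against 3.83% of all genes). CHAC1 was at 12.8 against 34.2 FPKM there and ATF4 at 221 against 308. In SNU719 0 of the 8 were at least 0.3 lower, where 3.42% of all genes were.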

How the data were processed

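RNA-seq libraries were made from 1 ug of total RNA with a stranded mRNA kit, per the labels' protocols. Reads were handled with bcl2fastq 2.20.0, HISAT2 2.1.0 and Cufflinks 2.2.1 on hg38, per the submitters' processing notes; settings and gene models: not given in the sources used here. The deposited values are FPKM, in 16 libraries of 12 groups, with 33648 rows; rows of 1 symbol were summed. limma 3.58.1 in R 4.3.3 (lmFit, eBayes with an intensity trend) was run on log2(FPKM + 1), keeping those genes whose mean reached 1 FPKM, with Benjamini-Hochberg adjustment over all genes and a threshold of 0.05; this scale understates the change of low genes. The script was tested on simulated data. The 35 members and the lists were chosen with earlier results of these data known, and genes were named by role: of the members up to 3 with the largest called change in each comparison, of the other lists up to 4. Same-numbered libraries of the MYB set deviated together: the replicate differences of its 4 groups correlated at 0.327 to 0.440 across genes, so the numbers pair the libraries in the data, while no label says what they share. The alternatives were another pseudocount, other filters, 2 scalings, the row choice, no trend, replicate blocks and leaving out each library. Gene positions are from GENCODE v29 (GRCh38).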

Additional observations from a re-analysis of the deposited data

Results flagged for a closer look

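In 4 of 66 groups of 4 control libraries, 1 library lay far from the other 3; chance flags about 1 group in 20. All 4 were in YCC10. HSPA5 was at 222 FPKM in the siCtrl library of the TCF7 set, against 282 to 287 in the others. PDIA4 was at 453 FPKM in the sgCtrl library, against 127 to 147 in the 3 siCtrl libraries. EDEM1 was at 11.4 FPKM in the siCtrl library of the TCF7 set, against 8.50 to 8.87. SPCS2, the signal peptidase subunit, was at 47.4 FPKM in that library, against 41.4 to 42.4. The siTCF7 values of HSPA5 and EDEM1 in YCC10 are read against that siCtrl library.

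The siMYB effect differed between the lines, YCC10 minus SNU719, for 10 members by limma. The chaperone HSPA5 differed by 0.48 (adjusted p = 0.0126). Among disulfide enzymes PDIA4 differed by 1.43 (0.00115), P4HB by 0.33 (0.0492) and ERO1A by -1.26 (0.0133). Among sensors and factors XBP1 differed by 0.36 (0.0194), ATF6 by 0.50 (0.0287) and CREB3L2 by 0.89 (0.00966). In degradation EDEM1 differed by -0.62 (0.009) and DERL1 by 0.36 (0.0278). The vesicle coat subunit SEC24D differed by 0.72 (0.0085).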

How the results depend on the processing

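Counts of members past the threshold were recomputed under each alternative, and no member call named in the report changed its sign. For siMYB in SNU719 (7 members) the count was 12 after median-of-ratios scaling, 19 with a replicate block for each pair, 20 with 1 block term for the number, and 3 to 6 with 1 library left out. For the line difference (10) it was 20 with either replicate block, 6 in the fit of all 16 libraries and 5 to 8 with 1 library left out. For siMYB over both lines (14) leaving out 1 library gave 7 to 12, and for siTCF7 (15) it gave 1 to 16, the value of 1 coming without the siCtrl or the siTCF7 library of YCC10. For siMYB against sgMYB-E3 (7) the count was 4 without a filter and 4 after quantile normalization, and 0 to 12 with 1 library left out. For sgCtrl against siCtrl (0) it was 0 to 1, the 1 coming without the SNU719 sgCtrl library. The counts of siMYB in YCC10, siMYB against siTCF7, sgMYB-E3 and the 2 lines' controls stayed within 1.5 times under the alternatives run. The pair block lost no call in either line alone or in the line difference; the losses over both lines, with siTCF7 and against sgMYB-E3 are given in the report. Why counts moved was not tested. A left-out library that leaves an arm with 1 library is assumed to vary like the others. FPKM carry no fragment counts, so no counting error can be given.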
